A study of Rattus norvegicus with 15 samples.

Results

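The untreated prostate of SD rats was described in the 5 Control libraries of a bulk RNA-seq series. The series holds 15 libraries in all, of which 5 are labelled Model and 5 were treated with LIPUS, low-intensity pulsed ultrasound. All 15 came from prostate tissue of SD rats, and the Control samples are labelled as given no treatment. The age of the animals, and which lobes were taken, are not given in the sources used here. Whether each library stands for an animal of its own is not stated, so the spread between libraries may be partly technical. The Model and LIPUS libraries were not used. Of the 22436 genes in the deposited table, the 10199 (45.5%) above 1 FPKM in all 5 Control libraries were selected on those values and described. FPKM counts fragments per kilobase of gene, scaled to the size of the library.

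The rat prostate has paired ventral, lateral and dorsal lobes, and the coagulating glands and seminal vesicles lie against them. Each lobe secretes its own proteins into the seminal fluid under the control of androgen. The ventral lobe is known for prostatein, a steroid-binding secretoglobin whose chains are encoded by Scgb1d2, Scgb1d4 and Scgb2a1. The dorsal and lateral lobes are known for probasin (Pbsn), a secreted lipocalin, and for beta-microseminoprotein (Msmb). A lobe ratio was therefore taken in each library as the log2 of the summed FPKM of the 3 prostatein genes over the summed FPKM of Pbsn and Msmb. In bulk tissue, fewer cells of a type and less RNA per cell cannot be told apart.

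The stretches just before the starts of these 5 genes are shown because the ratio turns on them. In the RefSeq gene order of build GRCr8 the 3 prostatein genes lie within 4 neighbouring protein-coding genes on chromosome 1. Each line gives the 250 bases before the annotated start, 5′ to 3′ on the strand of the gene, from RefSeq GRCr8: chr1:215656711-215656960 (minus strand) for Scgb1d2, chr1:215755113-215755362 (plus) for Scgb1d4, chr1:215922501-215922750 (plus) for Scgb2a1, chrX:45807984-45808233 (minus) for Pbsn and chr16:7372569-7372818 (plus) for Msmb. Capitals mark the hexamer AGAACA or its reverse complement TGTTCT, the core of the sequence that some steroid hormone receptors, the androgen receptor among them, recognise.
Scgb1d2: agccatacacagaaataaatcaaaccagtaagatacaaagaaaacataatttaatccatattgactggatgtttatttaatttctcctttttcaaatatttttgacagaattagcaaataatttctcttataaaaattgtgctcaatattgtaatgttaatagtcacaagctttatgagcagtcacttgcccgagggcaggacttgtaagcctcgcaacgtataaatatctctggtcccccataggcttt
Scgb1d4: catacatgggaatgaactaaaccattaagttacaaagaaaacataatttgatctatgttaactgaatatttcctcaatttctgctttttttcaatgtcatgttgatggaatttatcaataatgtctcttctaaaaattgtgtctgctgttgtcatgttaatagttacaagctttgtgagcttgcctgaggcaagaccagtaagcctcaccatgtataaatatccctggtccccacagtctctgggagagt
Scgb2a1: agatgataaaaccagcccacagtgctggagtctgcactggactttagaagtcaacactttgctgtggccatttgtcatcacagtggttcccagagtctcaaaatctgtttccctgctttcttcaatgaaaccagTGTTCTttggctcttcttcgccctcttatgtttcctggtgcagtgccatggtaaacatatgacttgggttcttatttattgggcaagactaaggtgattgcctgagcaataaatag
Pbsn: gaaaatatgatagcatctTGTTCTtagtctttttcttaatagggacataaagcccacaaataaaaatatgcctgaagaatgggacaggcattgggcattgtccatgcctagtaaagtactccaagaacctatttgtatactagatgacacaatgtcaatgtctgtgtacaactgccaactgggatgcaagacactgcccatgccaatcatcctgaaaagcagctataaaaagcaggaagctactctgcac
Msmb: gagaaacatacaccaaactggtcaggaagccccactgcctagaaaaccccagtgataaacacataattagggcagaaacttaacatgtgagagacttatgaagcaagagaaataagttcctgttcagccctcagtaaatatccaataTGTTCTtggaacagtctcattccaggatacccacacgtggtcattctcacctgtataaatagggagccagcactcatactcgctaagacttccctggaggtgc

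The hexamer was present once in Scgb2a1, 116 bases before the start, once in Pbsn, 232 bases before, and once in Msmb, 103 bases before. No copy of these letters was found in the windows of Scgb1d2 and Scgb1d4. Of all 27457 RefSeq promoters, 4690 (17.1%) held it in the same window, and so did 891 of the 8356 (10.7%) with a promoter entry among the genes above 1 FPKM in all 5 libraries. The letters TATAAA were present in the last 40 bases of Scgb1d2, Scgb1d4 and Pbsn, against 520 (1.89%) of all RefSeq promoters. Among the 8356 of genes above 1 FPKM in all 5 libraries, 87 (1.04%) held them there. Msmb also held these letters, but further than 40 bases from its start. Of the 30 most abundant genes, which include these 5, 19 had a promoter entry and 5 of those (26.3%) held TATAAA there. So did 3 of 16 (18.8%) of the genes described below as varying and lower at a higher ratio. The hexamer was held by 4 of the 19 (21.1%), Scgb2a1, Pbsn and Msmb among them, and by 0 of the 16. The windows of Scgb1d2 and Scgb1d4 were identical at 73.7% of aligned positions, and the other pairs of the 5 at 45.4% to 50.9%.

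Libraries held 30907739 to 36402094 reads, as inferred from the FPKM values, and 17997 to 18868 genes had at least 1 read. For a gene of 2 kb with 0 reads, an upper limit of 3 reads corresponds to 0.0412 to 0.0485 FPKM, counting error only. Genes encoded in mitochondria took 3.75% to 4.69% of reads. No library was a copy of another, since the reads of every pair differed by a chi-square of at least 74.9 per degree of freedom. No date or batch is given in the labels.

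On average over the 5 libraries, products of the ventral lobe were the most abundant transcripts, though in Control 7 Semg1 and Pbsn were above all of them. Scgb1d4 had the highest mean, 69877 ± 15469 FPKM (SD, n = 5), followed by Scgb2a1 at 69584 ± 13057 FPKM. Andpro, an androgen-regulated cystatin-related protein of the ventral lobe, came next at 58471 ± 19671 FPKM, and Scgb1d2 had 55477 ± 12173 FPKM. The seminal clot protein Semg1 ranked next at 25391 ± 35777 FPKM, before Pbsn at 19503 ± 21982 FPKM, and for both the SD was larger than the mean. The 10 genes of highest mean together held 49.4% ± 3.86 (SD, n = 5) of summed FPKM. In reads, which do not divide by gene length, the same share was 29.5% ± 4.05. All 4 marker genes of the lobes and glands were well above 1 FPKM in every library, with lowest levels of 53253 FPKM for Scgb2a1, 3199 FPKM for Pbsn, 361 FPKM for Semg1 and 174 FPKM for Msmb.

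Other genes of secreted proteins were also among the 30 most abundant. P22k15, a second cystatin-related protein, had 9678 ± 2198 FPKM, and the spermine-binding protein gene Sbp had 6830 ± 903 FPKM. S100vp, an S100 protein of the ventral prostate, had 5426 ± 1759 FPKM, and the kallikrein Klk1c9, a secreted serine protease, had 4182 ± 1377 FPKM. The prostate transglutaminase Tgm4, which cross-links clot proteins, had 3836 ± 3356 FPKM, and the beta-defensin Defb50, an antimicrobial peptide, had 3804 ± 4771 FPKM. Among the others, 9 are encoded in mitochondria, led by COX1 at 7694 ± 865 FPKM. Rpl41, Eef1a1 and Tpt1, which serve translation or growth, the redox protein gene Txn1, the chaperone gene Calr, the surface protein gene Cd24 and Msmb made up the rest, with 2 locus symbols (RGD1563136 and LOC296235). Andpro, P22k15 and the 2 locus symbols are 4 of 13 neighbouring protein-coding genes on chromosome 3. How alike the transcripts of related genes are was not computed. Reads of relatives such as Scgb1d2 and Scgb1d4, the cystatin-related genes or the Klk1c kallikreins could have been split by the counting. Their separate levels are therefore uncertain.

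**Figure D1:**
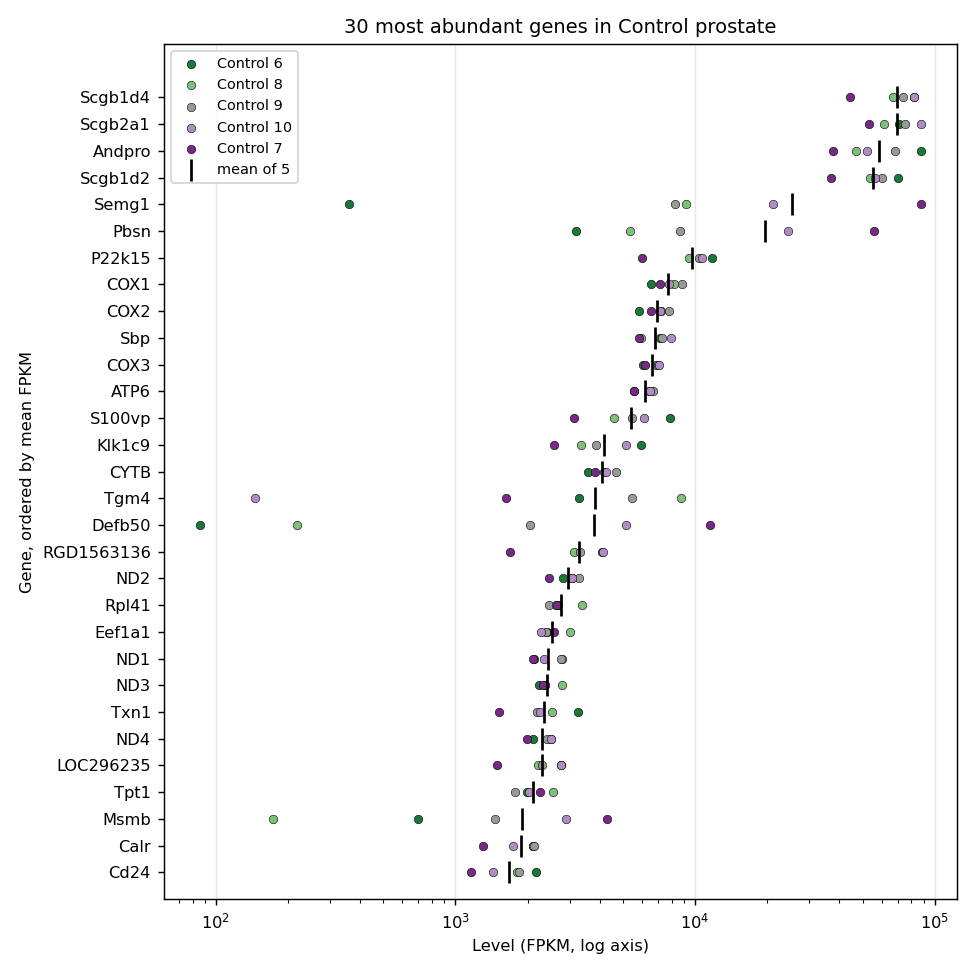
FPKM of the 30 most abundant genes in the 5 Control libraries, on a log axis, with a point per library and a bar at the mean. Semg1, Pbsn, Tgm4, Defb50 and Msmb spread widely, from 361 to 87993 FPKM for Semg1, while mitochondrial genes such as COX3 lie within 6046 to 7048 FPKM.

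The lobe ratio differed widely between the 5 libraries. On the log2 scale it was 5.84 in Control 6, 5.04 in Control 8, 4.37 in Control 9, 3.05 in Control 10 and 1.16 in Control 7, a mean of 3.89 ± 1.84 (SD, n = 5). Values below are given in this order of libraries, from the highest ratio to the lowest. The summed FPKM of the 3 prostatein genes was 223222, 182038, 209185, 225577 and 134665. The summed FPKM of Pbsn and Msmb was 3895, 5516, 10147, 27264 and 60207. The denominator thus differed far more than the numerator. As a share of reads, the prostatein genes took 10.7% to 17.6% and Pbsn with Msmb 0.286% to 4.57%.

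Among the genes that define the ratio, Pbsn followed it most closely, at 3199, 5342, 8680, 24382 and 55910 FPKM. This is the exact reverse of the order of the ratio, as the rule favours. Msmb had 697, 174, 1468, 2882 and 4296 FPKM and was lowest in Control 8, not in Control 6. Scgb1d2 had 70274, 53471, 60374, 56360 and 36905 FPKM, and Scgb1d4 had 82043, 67164, 73863, 81805 and 44507 FPKM. Scgb2a1 had 70905, 61403, 74947, 87412 and 53253 FPKM. All 3 prostatein genes were lowest in Control 7, and from highest to lowest library they differed 1.64-fold to 1.90-fold, against 17.5-fold for Pbsn and 24.7-fold for Msmb.

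For every gene a slope was fitted by least squares, the difference in log2(FPKM + 0.1) per unit of the log2 ratio over the 5 libraries, and no p-value was computed. A slope of 1 means that the gene is higher by the same factor as the ratio. As a description of genes used by the rule, the slope was -0.90 ± 0.06 (SE) for Pbsn and -0.79 ± 0.35 for Msmb. It was 0.17 ± 0.05 for Scgb1d2, 0.15 ± 0.08 for Scgb1d4 and 0.05 ± 0.08 for Scgb2a1, and without Control 7 the slopes of the latter pair were -0.02 and -0.14. A gene was counted as varying with the ratio where its slope was at least 0.5 in size and kept its sign and a size of at least 0.25 when any 1 library was left out.

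Most genes varied little with the ratio. Of 10199 genes, 8365 (82.0%) had a slope under 0.1 in size, and the median slope was 0.01. In all, 40 genes had a slope of at least 0.5 in size. Of these, 5 (0.0490% of all genes described) were counted as varying and higher in libraries with a higher ratio. Another 22 (0.216%) were counted as varying and lower, 20 of them besides Pbsn and Msmb. These numbers depended on single libraries. Without Control 6 they were 16 higher and 19 lower outside the ratio genes, without Control 7 they were 2 and 29, without Control 8 they were 5 and 32, and without Control 10 they were 2 and 24. Just outside the threshold lay Krt7 at -0.50 (under 0.5 in size before rounding), Cd38 at -0.49 and Depdc7 at -0.49. Just inside lay Ddah1 at -0.51, counted as varying, and Ca3 and Rbp4, both at 0.51, which changed sign when a library was left out.

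**Figure D2:**
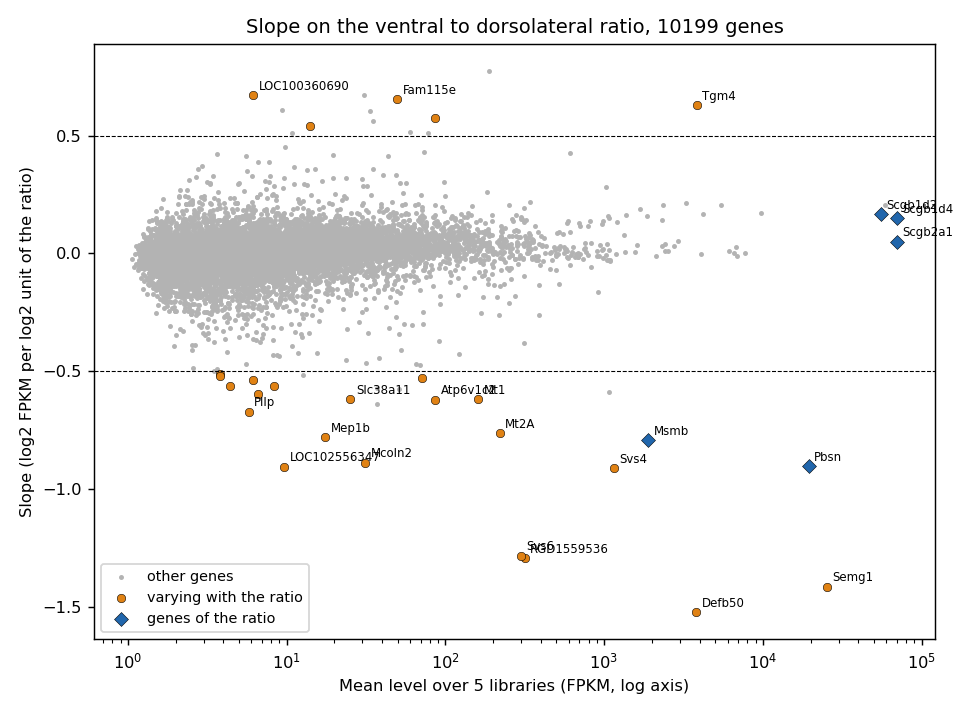
Slope on the lobe ratio (log2 FPKM per log2 unit) against mean FPKM on a log axis, for 10199 genes. Dashed lines mark slopes of 0.5 and -0.5, orange points are the 25 varying genes outside the ratio, and blue diamonds are the 5 genes of the ratio. Defb50 at -1.52 and Semg1 at -1.41 have the steepest slopes, both below 0, and Tgm4, of like abundance to Defb50, lies above 0 at 0.63.

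The beta-defensin gene Defb50 and the clot protein gene Semg1 had the steepest slopes of the 20 genes that were lower at a higher ratio. Defb50 had 85.8, 219, 2049, 5148 and 11517 FPKM, a 134-fold range in the exact reverse order of the ratio, with a slope of -1.52 ± 0.35 (SE). Without Control 7 its slope was -2.22. Semg1, the seminogelin that forms the seminal clot, had 361, 9134, 8288, 21181 and 87993 FPKM, a 244-fold range and a slope of -1.41 ± 0.41. In Control 7 the level of Semg1 exceeded that of every prostatein gene, and without Control 6 its slope was -0.90. Svs4, a seminal vesicle secretory protein, had 107, 668, 375, 487 and 4128 FPKM and a slope of -0.91 ± 0.28, which was -0.59 without Control 7. Its relative Svs6 had 2.20, 116, 89.4, 7.54 and 1275 FPKM and a slope of -1.28 ± 0.84. The slope of Svs6 rested on Control 7 and Control 6, being -0.26 without the former and -0.76 without the latter.

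Exact reversal of the order of the ratio was seen in 76 of 10199 genes (0.745%), and the same order in 202 (1.98%). Besides Pbsn, 5 of the 20 varying genes lower at a higher ratio had the exact reverse order, namely Defb50, Mep1b, Pllp, Gpx2 and LOC102556347. None of the 5 varying genes that were higher had the same order as the ratio.

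**Figure D3:**
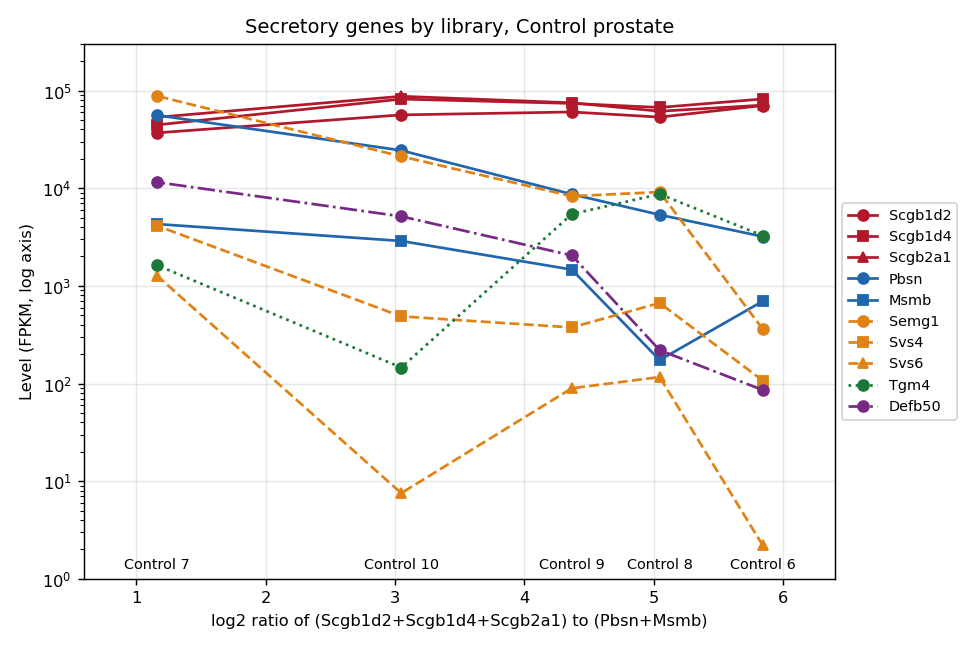
FPKM (log axis) of 10 secretory genes against the lobe ratio of each Control library. The 3 prostatein genes (red) stay between 36905 and 87412 FPKM, Pbsn and Defb50 decline steadily as the ratio increases, and Tgm4 (green) is lowest in Control 10 at 146 FPKM, away from either end of the ratio.

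Genes of metal handling were also among those lower at a higher ratio. Mt2A, a metallothionein that binds zinc and copper, had 33.0, 140, 114, 276 and 535 FPKM and a slope of -0.76 ± 0.17 (SE). Mt1, another metallothionein, had 31.9, 138, 101, 182 and 352 FPKM and a slope of -0.62 ± 0.18, which was -0.41 without Control 6. Both were highest in Control 7 and lowest in Control 6, a 16.2-fold and an 11.1-fold range. Slc39a10, a zinc importer, had 1.79, 1.71, 3.49, 3.62 and 11.5 FPKM and was also counted as varying, and it is named after its values were seen. The zinc exporter of secretory vesicles Slc30a2 had 16.9, 86.0, 48.7, 50.7 and 146 FPKM, and its slope of -0.47 ± 0.24 stayed under the threshold. Mt3, outside the 1 FPKM selection because of 0.926 FPKM in Control 6, had 11.2, 28.3, 93.8 and 60.9 FPKM in the other libraries. In the list of 15 zinc handling genes, which does not hold Slc39a10, 11 were above 1 FPKM in all 5, and 2 of the 11 were counted as varying, both lower, where 0.216% of all genes were. The 2 are the metallothioneins above. The median slope of the 11 was -0.02 against 0.01 for all genes, and Slc39a7, a zinc transporter, had 110 to 127 FPKM.

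Several membrane and transport genes shared this direction. Mcoln2, a cation channel of endosomes and lysosomes, had 1.81, 36.0, 9.33, 34.2 and 75.03 FPKM and a slope of -0.89 ± 0.41 (SE), which was -0.48 without Control 6. Mep1b, which encodes a chain of the metalloprotease meprin, had 3.41, 4.02, 15.3, 28.0 and 36.9 FPKM and a slope of -0.78 ± 0.20, which was -1.17 without Control 7. Pllp, the membrane protein plasmolipin, had 1.47, 2.19, 4.43, 6.71 and 14.0 FPKM and a slope of -0.67 ± 0.07. Atp6v1c2, a subunit of the proton pump that acidifies vesicles, had 23.0, 54.8, 51.6, 97.9 and 206 FPKM and a slope of -0.62 ± 0.09. All 4 were lowest in Control 6 and highest in Control 7. Slc38a11, of an amino acid transporter family, had 11.5, 4.33, 27.1, 23.0 and 60.4 FPKM, and like Msmb was lowest in Control 8. Mboat1, a lysophospholipid acyltransferase, had 1.05, 9.10, 2.33, 6.03 and 14.3 FPKM and a slope of -0.59 ± 0.31, which was -0.35 without Control 6.

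The remaining varying genes of this direction were Slc1a5, a glutamine transporter, the hydrolase gene Abhd2, the glutathione peroxidase gene Gpx2, Ddah1, the uroplakin gene Upk1a, and the locus symbols RGD1559536 and LOC102556347. All but Upk1a fell outside the rule for named genes and are named here to complete the count. Abhd2 was the most abundant with a usual symbol, at 39.1, 21.8, 54.1, 79.4 and 160 FPKM. RGD1559536 had 9.29, 137, 33.5, 503 and 895 FPKM and the third steepest slope of the 20, -1.29 ± 0.42 (SE). LOC102556347 had 1.70, 2.25, 3.71, 12.9 and 27.6 FPKM and a slope of -0.90 ± 0.09.

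Few genes were higher in libraries with a higher ratio. Tgm4 had 3269, 8703, 5432, 146 and 1629 FPKM. It is listed here with the dorsolateral products, yet its slope was 0.63 ± 0.63 (SE), opposite in sign to those of Pbsn and Msmb. The level was highest in Control 8 and lowest in Control 10, and the slope was 0.35 without Control 10 and 1.75 without Control 7. Fam115e had 61.8, 70.4, 94.1, 2.82 and 19.1 FPKM and a slope of 0.65 ± 0.53, which was 0.42 without Control 10 and 1.59 without Control 7. Hpgd, the enzyme that inactivates prostaglandins, had 117, 67.0, 209, 12.8 and 27.9 FPKM and a slope of 0.58 ± 0.38, which was 1.03 without Control 7. These 3 genes were all lowest in Control 10 and next lowest in Control 7. The other two were the locus symbols LOC100360690 and LOC120093635, named here to complete the count of 5. LOC100360690 had 5.17, 17.7, 4.91, 1.99 and 1.07 FPKM and the steepest slope of the 5, 0.67 ± 0.27. LOC120093635 had 32.9, 13.04, 9.28, 10.9 and 3.85 FPKM and a slope of 0.54 ± 0.14. Both were lowest in Control 7.

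Most other abundant ventral products had small positive slopes. Andpro had 87550, 46844, 68037, 52393 and 37530 FPKM and a slope of 0.20 ± 0.09 (SE). P22k15 had 11789, 9464, 10435, 10666 and 6034 FPKM and a slope of 0.17 ± 0.07. S100vp had 7848, 4582, 5474, 6109 and 3118 FPKM and a slope of 0.21 ± 0.10. Without Control 7 the slopes of P22k15 and S100vp were 0.03 and 0.07. All 3 were highest in Control 6 and lowest in Control 7, as was Klk1c9 at 5979, 3339, 3869, 5153 and 2569 FPKM. Sbp differed least of these, with 7154, 5931, 7259, 7941 and 5865 FPKM and a slope of 0.03 ± 0.06, smaller than its error. A second kallikrein, Klk1c8, had 56.5, 12.8, 22.7, 72.9 and 16.9 FPKM, high in Control 10 and Control 6. Clu, a secreted chaperone placed on the ventral list, went the other way, with 43.2, 73.4, 82.4, 50.9 and 205 FPKM.

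The seminal vesicle list moved with the low end of the ratio. Of its 13 symbols 9 were in the table, and 3 of those (Semg1, Svs4 and Svs6) were above 1 FPKM in all 5 and are the members already counted as varying. The summed level of the list was 471, 9929, 8758, 21680 and 93625 FPKM, and Semg1 made up most of it. Svs5 had 0.324, 7.92, 2.80, 1.80 and 190 FPKM, and Pate4, a small secreted protein, was listed at 0 in Control 6, Control 9 and Control 10, with 1.52 FPKM in Control 8 and 25.002 FPKM in Control 7. Semg1, Svs3a, Svs3b, Svs4, Svs5 and Svs6 are 6 consecutive protein-coding genes on chromosome 3. They did not share one order of libraries: Semg1 was second highest in Control 10, whereas Svs4, Svs5 and Svs6 were second highest in Control 8. Pax2, a transcription factor of the seminal vesicle, reached 0.381 FPKM in Control 7 and was listed at 0 in Control 6 and Control 10. The part of seminal vesicle tissue in the slopes was not tested.

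Most urothelial and epididymal markers were low. Upk1a had 1.92, 8.93, 3.001, 10.99 and 16.6 FPKM and was the only 1 of 8 urothelial genes above 1 FPKM in all 5. Upk2 had 2.56 FPKM in Control 10 and 4.28 FPKM in Control 7, and Upk3a had 4.74 and 4.33 FPKM there, while both were at 0.318 FPKM or less in the other libraries. Krt20 was listed at 0 in Control 6, Control 8 and Control 9. The urothelial list summed to 3.14 to 30.3 FPKM. Of the epididymal list, 6 of 9 symbols were in the table and Lcn5 and Cst8 were listed at 0 in all 5. Its sum of 2.02 to 259 FPKM came from the beta-defensin Defb1, which had 0.585, 3.97, 30.2, 121 and 258 FPKM, like Defb50 in the exact reverse order of the ratio. Adam7, of the same list, had 1.43, 0.755, 0.690, 2.02 and 0.676 FPKM, lowest in Control 7. The part of these tissues in the slopes was not tested.

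Markers of muscle and fat followed other orders of the libraries. Of 12 skeletal muscle genes only Acta1, an actin, was above 1 FPKM in all 5, at 101, 372, 230, 233 and 242 FPKM, highest in Control 8. Mylpf, a myosin light chain of fast muscle, had 1.24, 0.104, 171, 185 and 0.213 FPKM, and Ckm, the muscle creatine kinase, had 0.864, 2.85, 77.2, 83.5 and 3.24 FPKM. Myh4, a fast myosin heavy chain, had 34.5 FPKM in Control 9 and 32.3 FPKM in Control 10 and was at 0.0338 FPKM or less in the others. These 3 were high in Control 9 and Control 10, at neither end of the ratio, which Acta1 was not. The summed level of the adipocyte genes was lowest in Control 7. Adipoq, the adipose hormone adiponectin, had 21.1, 58.3, 47.4, 36.7 and 3.86 FPKM, and Fabp4, a fatty acid carrier, had 26.7, 77.6, 143, 43.3 and 8.11 FPKM, while Pnpla2, a lipase, had 10.3 FPKM in Control 6 and 10.7 FPKM in Control 7. The 5 of 9 adipocyte genes above 1 FPKM in all 5 had a median slope of 0.42, none was counted as varying, and without Control 7 the median was -0.19. Since 0.0490% of all genes were counted as higher and 0.216% as lower, 0 is the usual count for such a list. The lists summed to 106 to 793 FPKM for skeletal muscle and 36.1 to 321 FPKM for adipocytes.

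The summed levels of smooth muscle genes and of fibroblast and matrix genes were highest in Control 8 and lowest in Control 6. Acta2, the smooth muscle actin, had 290, 837, 386, 404 and 669 FPKM, and Tagln, another smooth muscle protein, had 505, 1202, 601, 575 and 778 FPKM. Single members differed, such as Dcn, a matrix proteoglycan, with 208, 288, 206, 271 and 316 FPKM. Of 14 smooth muscle genes 0 were counted as varying, and their median slope was -0.12, or 0.004 without Control 6. Col3a1, a fibrillar collagen, had 215, 434, 229, 330 and 355 FPKM. The 17 fibroblast and matrix genes summed to 1456 to 2634 FPKM, with 0 counted as varying. The endothelial list summed to 23.8 FPKM in Control 6, 42.0 FPKM in Control 8 and 43.7 FPKM in Control 7. Of its 9 genes above 1 FPKM in all 5, 9 had a negative slope, between -0.22 and -0.11, and 0 were counted as varying. Over all genes the median slope was 0.01 and the lower quartile -0.04. As 0.0490% of all genes were counted as varying and higher and 0.216% as lower, 0 is the usual count for lists of these sizes. With 1 library left out, the slopes of Pecam1 and Cdh5 reached 0.006 and -0.0003. Those of Emcn and Cldn5 stayed below 0.

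Genes of epithelial identity differed by small amounts in most cases. Epcam, an epithelial adhesion protein, had 156, 181, 161, 178 and 187 FPKM, and Krt18, a luminal keratin, had 83.8 to 116 FPKM. Hoxb13, the homeobox gene that marks prostate, had 171, 148, 147, 146 and 138 FPKM. None of 15 luminal genes, 7 basal genes, 17 androgen response genes or 12 Hox genes above 1 FPKM in all 5 was counted as varying, where 0.0490% of all genes were counted as higher and 0.216% as lower, so that 0 is the usual count for lists of this size. The median slopes of these lists were -0.04, -0.06, 0.07 and -0.07. Among the luminal genes Krt7 lay just under the threshold, as given above. Srd5a2, the enzyme that makes dihydrotestosterone, had 9.47, 6.63, 7.61, 17.6 and 18.3 FPKM, highest in Control 7 and Control 10. The surface protein gene Cd24 had 2174, 1801, 1841, 1430 and 1164 FPKM, and its slope of 0.19 ± 0.02 (SE) had a small error for its size.

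The machinery that folds and exports secreted proteins leaned towards libraries with a high ratio, by small amounts. Of 23 genes, 18 had a positive slope and 5 a negative one, the median was 0.09 against 0.01 for all genes, and 0 were counted as varying. That count is the usual one where 0.0490% of all genes were counted as higher and 0.216% as lower. With a median above 0, positive slopes were also the more common over all genes, whose upper quartile was 0.05. Calr, a chaperone of the endoplasmic reticulum, had 2108, 2099, 2128, 1740 and 1302 FPKM and a slope of 0.16 ± 0.03 (SE). Hspa5, the chaperone BiP, had 1156, 1298, 1207, 819 and 784 FPKM and a slope of 0.16 ± 0.05. Polyamine synthesis, a known feature of prostate, had 9 of 12 slopes positive and a median of 0.06, and Odc1, its first enzyme, had 146, 139, 119, 127 and 90.1 FPKM. The citrate cycle and export list had a median slope of 0.04, or -0.02 without Control 7. Its genes Mdh1 at 154, 204, 195, 194 and 265 FPKM and Acly at 146, 111, 171, 113 and 81.7 FPKM had opposite signs.

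Markers of lymphocytes and neutrophils were low. Macrophage genes summed to 195 to 298 FPKM, T cell genes to 6.03 to 11.3 FPKM, B and plasma cell genes to 0.0978 to 0.415 FPKM and neutrophil genes to 0.556 to 2.49 FPKM. The complement gene C1qa, made by macrophages, had 17.2 to 25.4 FPKM. Of 14 macrophage genes above 1 FPKM in all 5, 7 had a positive and 7 a negative slope, and 0 were counted as varying. Such a count is usual where 0.0490% of all genes were counted as higher and 0.216% as lower. The T cell list had 1 gene above 1 FPKM in all 5, and the B and plasma cell and neutrophil lists had 0. The mast cell list had 2, Cpa3 with 7.80 to 11.5 FPKM and Cma1 with 4.42 to 8.88 FPKM. Their slopes were -0.07 and 0.12.

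**Figure D4:**
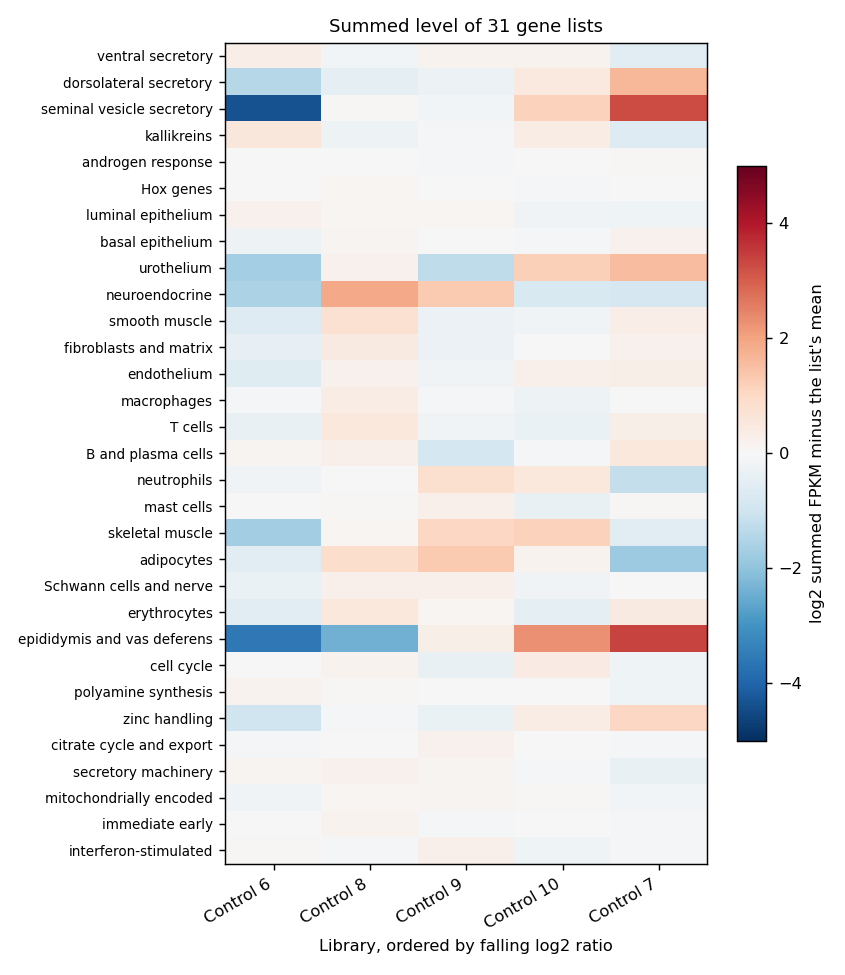
Summed FPKM of 31 gene lists in each Control library, as the log2 difference from the list's mean over the 5 libraries (red higher, blue lower), with libraries ordered from the highest lobe ratio to the lowest. Seminal vesicle, epididymal, urothelial, zinc, endothelial and basal epithelial lists are lowest in Control 6 and highest in Control 7. So is the dorsolateral list, but it holds Pbsn and Msmb, whose levels help set the order of the libraries. The range is 199-fold for the seminal vesicle list, 4.06-fold for zinc and 1.36-fold for the basal list. The zinc list holds Mt1 and Mt2A, and the median slope of its genes is -0.02. Skeletal muscle is highest in Control 10 at 793 FPKM, adipocytes in Control 9 at 321 FPKM and smooth muscle in Control 8 at 4000 FPKM.

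The lobe ratio was therefore not the only order among the libraries. In a principal component analysis of the 10199 genes, the first component held 48.9% of the variance and ran from Control 6 at -0.26 through Control 9 at -0.10, Control 10 at -0.04 and Control 8 at 0.13 to Control 7 at 0.27. Control 8, second in the ratio, lay next to Control 7 on it. The second component, with 22.9%, set Control 8 at 0.20 against Control 10 at -0.17. Control 7 lay at -0.09 on the second component. Fcgbpl1 and Cd52, 2 abundant genes, were likewise highest in Control 8 and lowest in Control 10, though they differed in Control 7. Fcgbpl1, which resembles a mucus protein that binds antibodies, had 258, 2079, 373, 30.5 and 295 FPKM. Cd52, a small surface glycoprotein of lymphocytes and of the male genital tract, had 30.98, 751, 56.6, 8.71 and 714 FPKM, high in Control 8 and Control 7.

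Some of the steadiest of the 200 most abundant genes show the low end of the spread between libraries only. They were picked by their small coefficient of variation in these same 5 libraries. Spint2, an inhibitor of epithelial serine proteases, had 295, 276, 287, 282 and 281 FPKM, a coefficient of variation of 0.026. Ywhae, Ubb, Dstn and Gabarap, which serve signalling, ubiquitin tagging, actin turnover and autophagy, had coefficients of variation between 0.044 and 0.048. Over all 10199 genes the median SD of log2 values was 0.18.

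**Figure D5:**
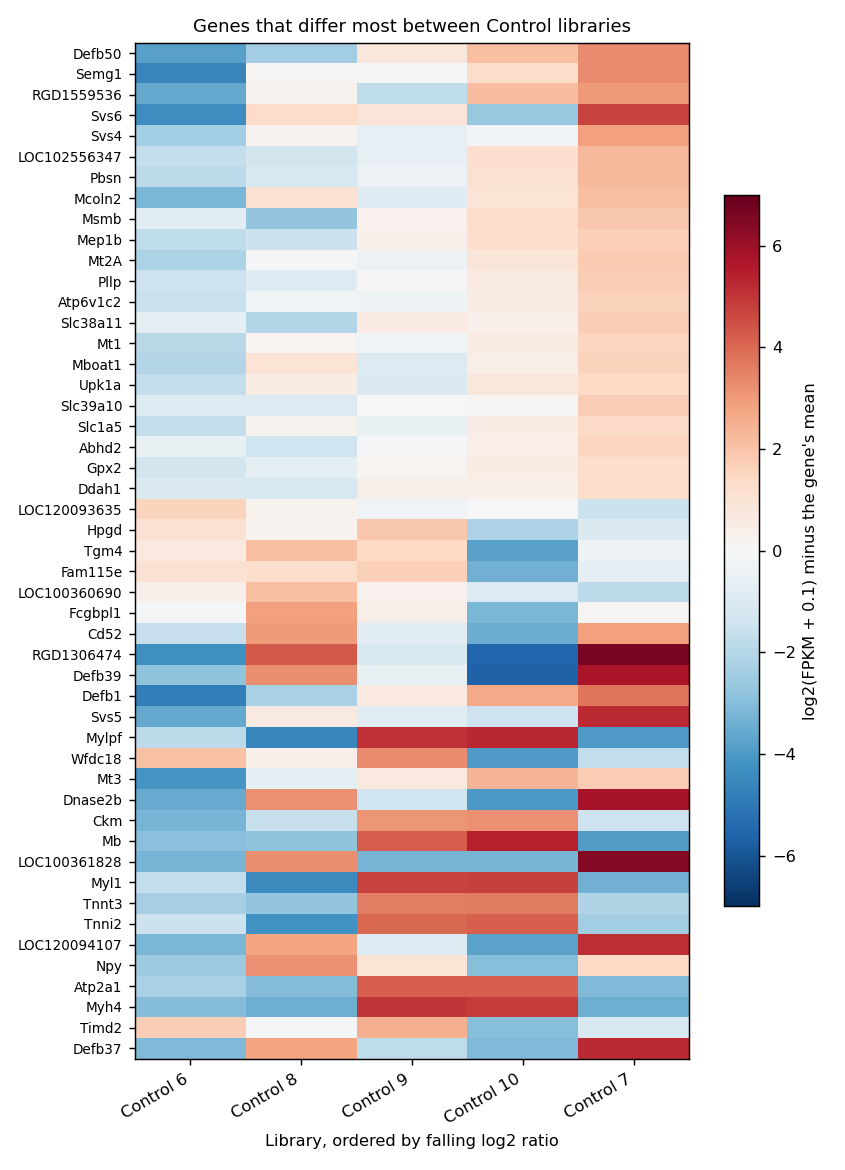
Differences of log2(FPKM + 0.1) from the gene's mean over the 5 Control libraries (red higher, blue lower), for the 27 varying genes in order of slope, Fcgbpl1, Cd52, and 20 genes at 1 FPKM or less in some library and at 10 FPKM or more in another. Libraries run from the highest lobe ratio to the lowest. Pbsn and Defb50 increase evenly towards Control 7, muscle genes such as Mylpf are high in Control 9 and Control 10 (171 and 185 FPKM), and Svs5 is high in Control 7 at 190 FPKM.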

How the data were processed

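Per the labels' protocols, prostate RNA was extracted with TRIzol, and the VAHTS Universal V5 kit was used for the libraries. The authors deposited FPKM for 22436 genes, 1 value per gene and sample, and the submitters' processing notes name fastp, HISAT2, SAMtools, HTSeq, R 3.2.0, DESeq2 and build rn6, with no role or order. The strand of the libraries is not given in the sources used here, so overlapping antisense genes cannot be told apart. Reads were recovered from the deposited FPKM as the numbers that are whole within 1e-05 for each gene, in all 21264 genes with a value above 0. They served for depth and shares of reads. Library sizes were inferred from the same values by taking the largest that fit, so depth and the limit for 0 reads rest on that choice. Where a gene's length and reads share a factor, the recovered reads can be too small by it, so shares of reads are approximate.

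Slopes of log2(FPKM + 0.1) on the lobe ratio were fitted by least squares with 3 residual degrees of freedom (Python 3.11.15, numpy 2.4.6, pandas 2.3.3, scipy 1.17.1) after checks on simulated data. With 5 libraries ordered by their own values, no test was made. The genes, the ratio and the 31 lists were chosen with earlier results of these data known, so none is independent support. Named genes are the ratio genes and Semg1, the 30 of highest mean FPKM, the 12 highest and 12 lowest slopes among varying genes whose mean reached 5 FPKM, the 6 most and 6 least variable of the 200 most abundant by coefficient of variation, and up to 4 most abundant members of each list, locus symbols passed over. Genes named outside these rules, such as Clu, Srd5a2, Pax2, Krt20, Mt3, Myh4 and Slc39a10, were chosen after their values were seen. Some of these genes are not reported here. Of the 403 list symbols, 29 had no row in the table. RefSeq tables of build GRCr8 gave promoter sequences and gene order only, and 21120 gene numbers matched. Alternatives changed the pseudocount, the filter, the scaling, the ratio and the libraries used.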

Additional observations from a re-analysis of the deposited data

Results flagged for a closer look

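Over 86 values, 4 had a library whose gap to the next, as a share of the whole range of the 5, was above 0.71. Chance gives about 1 in 20, so this number is at the level of chance. Control 8 had the highest Rpl41 (a gap of 0.739 of the range, at 3388 FPKM against 2465 to 2679) and the highest ND3 (0.727, at 2789 FPKM against 2223 to 2365). Control 8 also had the lowest share of summed FPKM in the 10 most abundant genes (0.768, at 42.6% against 50.02% to 52.2%). Control 9 had the highest summed level of the citrate cycle and export list (0.818, at 1139 FPKM against 942 to 975).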

How the results depend on the processing

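The counts of varying genes outside the ratio, 5 higher and 20 lower, depended on the settings. A pseudocount of 1 gave 13 lower, no filter on low values gave 23 and 129, a filter of 5 FPKM gave 2 and 8, and the ratio of Scgb2a1 to Msmb gave 10 lower. With Tgm4 added to the ratio, an alternative chosen after seeing the data, they were 9 and 53. Leaving out 1 library gave 2 to 16 higher and 17 to 32 lower. Of the 25 genes, 17 remained under the pseudocount of 1, 10 under the filter of 5 FPKM, 13 under the ratio of Scgb2a1 to Msmb, 21 with the median of pairwise slopes, and 13 to 22 when a library was left out. Both other scalings, the lower pseudocount, the ratio of Scgb2a1 to Pbsn and the ratio of recovered reads kept all 25. The share of the 10 most abundant genes was 29.5% in reads and 48.7% to 51.1% with a library left out. Slopes of named genes stayed within 1 SE of their value in 606 refits and moved further in 75, of which 29 were without Control 7. The cause was not tested. No paired analysis was possible because a single group was described.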

Other observations

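The filter of 1 FPKM in all 5 libraries left out 63 genes that were at 1 FPKM or less in some library and at 10 FPKM or more in another, a set looked at after the values were seen. Control 7 had the highest level of 24 of them, Control 10 of 17, Control 9 of 12, Control 8 of 10 and Control 6 of 0. Each gene entered the set through a library where it was high. How often each library was highest over all genes was not computed. Control 6 also had the fewest genes above 1 FPKM, 10710 against 10984 to 11391 in the others. In the order Control 6, Control 8, Control 9, Control 10 and Control 7, the beta-defensin Defb39 had 0.598, 47.7, 3.40, 0 and 263 FPKM. The nuclease gene Dnase2b had 0.0420, 14.9, 0.534, 0 and 89.5 FPKM, and RGD1306474 had 0.321, 164, 3.88, 0.0766 and 848 FPKM. These 3 shared high levels in Control 7 and, at a lower level, Control 8, as did Svs5 and Pate4.

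Other genes of the set had other orders. Wfdc18, of the family of secreted protease inhibitors, had 39.4, 12.1, 93.8, 0.515 and 2.75 FPKM, lowest in Control 10 like Tgm4. The neuropeptide gene Npy had 0.665, 41.0, 8.67, 0.456 and 11.6 FPKM, highest in Control 8. Ucp1, the uncoupling protein of brown fat, had 25.2 FPKM in Control 9 and was at 0.0235 FPKM or less in the other libraries. The calcium channel gene Trpv6 had 10.6 FPKM in Control 7 and 1.56 FPKM or less in the others.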
